A study of Mus musculus with 2 samples.

Results

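The replication-dependent histone cluster genes were taken as every gene symbol beginning with Hist1h, Hist2h, Hist3h or Hist4h in both expression tables. This gave 68 of 24346 symbols: 6 of linker histone H1, 18 of H2A, 19 of H2B, 12 of H3 and 13 of H4. One of them, Hist3h2bb-ps, is a pseudogene. In the mm10 assembly 54 lie on chromosome 13 between 21715763 and 23934851 (the Hist1 cluster), 10 on chromosome 3 between 96219865 and 96270132 (Hist2), 3 on chromosome 11 between 58948920 and 58956830 (Hist3), and Hist4h4 alone on chromosome 6.

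Both libraries were made from CD4+ T cells sorted from mouse spleen on day 14, and both groups carried the label HFD-MI, in a series whose title concerns remodelling after myocardial infarction. The treated animals received probucol, an antioxidant compound used to lower cholesterol, and the comparison animals went without it. With 1 library on each side, there was no replicate spread, no p-value was computed, and every difference below is between these 2 libraries. The labels give neither the number of animals behind a library, nor their genotype, strain, age or the length of treatment, and they do not explain the word HypoE in the file headers. Cd4 was at 334 FPKM (fragments counted per kilobase of transcript and scaled to library depth) with probucol against 284 FPKM untreated. Cd8a was at 0.139 and 0.276 FPKM and Cd8b1 at 15.9 and 19.6 FPKM. The 5 genes of the CD4 T cell list summed to 1838 FPKM with probucol against 1834 FPKM untreated. That list includes Cd3e, Cd3d, Cd5 and Cd28, which CD8 T cells express too, so its sum does not single out CD4+ cells. The purity of the sort was not tested.

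Each nucleosome is DNA wrapped around a core of H2A, H2B, H3 and H4, and H1 binds the DNA between cores. The cluster genes supply most of these proteins during S phase, when newly copied DNA has to be packaged. Their messages are unusual: most have no introns and no poly(A) tail, and end instead a few bases after a short stem-loop that binds the stem-loop binding protein, encoded by Slbp. Cutting at this point needs the U7 small nuclear ribonucleoprotein, and a minority of cluster genes can also make messages that run on to a downstream poly(A) site. The SMART-Seq HT chemistry used here for cDNA primes on poly(A) tails. FPKM of these genes are therefore levels of the RNA that was captured, which need not include messages that end at the stem-loop.

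The stem-loop is shown for the members that the levels turn on and for the rarer forms. Each line gives the stem-loop with 5 bases on either side, 5′ to 3′ on the coding strand, and capitals mark the 4 bases of the loop. Hist1h4d and Hist1h4c were the highest H4 genes, Hist1h1c the highest H1, Hist3h2a the highest H2A and Hist1h3e the highest H3. The others show a loop or stem that differed from the common forms.
Hist1h1c (chr13:23739507-23739532, plus strand): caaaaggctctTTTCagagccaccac
Hist3h2a (chr11:58955167-58955192, plus strand): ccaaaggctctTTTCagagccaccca
Hist1h4d (chr13:23581945-23581970, plus strand): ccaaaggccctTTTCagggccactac
Hist1h4c (chr13:23698084-23698109, minus strand): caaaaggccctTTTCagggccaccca
Hist2h4 (chr3:96262934-96262959, minus strand): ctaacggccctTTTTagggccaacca
Hist1h4b (chr13:23757361-23757386, plus strand): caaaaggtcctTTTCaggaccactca
Hist1h4a (chr13:23760795-23760820, minus strand): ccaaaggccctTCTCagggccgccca
Hist1h3e (chr13:23561898-23561923, minus strand): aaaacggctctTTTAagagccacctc
Hist1h3g (chr13:23535884-23535909, plus strand): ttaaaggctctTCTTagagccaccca
Hist2h2ac (chr3:96220413-96220438, minus strand): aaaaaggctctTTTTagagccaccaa

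The search looked for a stem of 6 paired bases that opens with GG and closes with CC, with T just before the loop and A just after it. The loop has 4 bases of the pattern TNTN, where N is any base. It covered the 150 bases after the stop codon of each GENCODE M21 transcript (GRCm38, the same assembly as mm10). Of the 68 members, 52 had at least 20 annotated bases after the stop codon and could be searched. A match was found in 46 of the 52, starting 21 to 58 bases after the stop codon. Hist2h3b and Hist1h1a, without a match, had only 37 and 48 annotated bases there. Their models may end too early to hold a stem-loop, so a miss in them does not show that it is absent. The stem followed the histone type. All 12 H4 matches began GGCCCT or GGTCCT, whereas every H1, H2A, H2B and H3 match began GGCTCT. The form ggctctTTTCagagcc was the commonest, with 26 members: 3 of H1, 10 of H2A, 8 of H2B and 5 of H3. Hist1h4d and Hist1h4c shared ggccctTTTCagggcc with 5 other H4 genes. A TTTA loop occurred in 6 members, Hist1h3e among them. The TTTT loop on the GGCTCT stem occurred in Hist2h2ac, and the TCTT and TCTC loops in Hist1h3g and Hist1h4a, 1 member each.

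The promoters also differed by type. Of the 68 members 61 matched 1 RefSeq promoter (GRCm38.p6), taken as 250 bases before to 50 after the start, and 3 short motifs were counted on both strands. CCAAT was present in 52 of the 61 (85.2%), against 37.9% of all 27025 promoters. It was in all 49 promoters of H1, H2A, H2B and H3 genes and in 3 of 12 H4 promoters. TATAAA was present in 57.4% of member promoters and 14.2% of all promoters. ATTTGCAT is the octamer bound by the factors Oct1 and Oct2. It was present in 7 of 17 H2A and 6 of 16 H2B promoters and in none of H1, H3 or H4. Of all promoters 1.75% carried it. Some H2A and H2B genes run in opposite directions from starts 164 to 281 bases apart. Their windows overlap, so 1 site of any motif can count for both. Within 110 bases before the start, ATTTGCAT was found in Hist1h2bb, Hist1h2bg, Hist1h2bk, Hist1h2bm and Hist2h2bb, and in none of H2A. The 110 bases before the start are shown for 3 abundant members of different types, with capitals for the motifs found there on either strand.
Hist1h1c (chr13:23738697-23738806, plus strand): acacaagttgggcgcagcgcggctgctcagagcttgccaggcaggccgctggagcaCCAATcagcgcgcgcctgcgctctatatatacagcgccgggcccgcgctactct
Hist2h2bb (chr3:96269590-96269699, plus strand): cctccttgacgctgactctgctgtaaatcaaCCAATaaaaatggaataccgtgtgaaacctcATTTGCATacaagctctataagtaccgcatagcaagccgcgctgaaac
Hist1h4d (chr13:23581458-23581567, plus strand): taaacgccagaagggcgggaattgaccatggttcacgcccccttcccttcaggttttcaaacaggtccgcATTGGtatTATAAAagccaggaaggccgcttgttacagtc
Hist1h1c had no TATAAA in this window, Hist2h2bb carried the octamer downstream of its CCAAT, and Hist1h4d had a CCAAT on the opposite strand next to TATAAA. A match describes these letters only and was not tested for binding.

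Histone cluster transcripts were present in both libraries at low levels. With probucol 42 of 68 members (61.8%, exact Clopper-Pearson 95% interval 49.2 to 73.3) had an FPKM above 0, and in the untreated library 47 (69.1%, 56.7 to 79.8). These intervals take the members as independent draws, which genes that share sequence are not. They do not cover differences between animals or libraries. Over all symbols the shares were 58.7% and 69.3%, so that the members were detected about as often as any listed gene. A set of 1586 receptor, keratin-associated and beta-defensin genes of other tissues was above 0 in 4.73% with probucol and 28.2% untreated, so that among genes of other tissues, too, values above 0 were commoner in the untreated library. Of the 68 members, 37 were above 0 in both libraries, 5 only with probucol, 10 only untreated and 16 in neither. Of all 24346 symbols, 13587 were above 0 in both, 702 only with probucol, 3289 only untreated and 6768 in neither. The lean to the untreated library was thus not particular to the members. By type, 5 of 6 H1 genes were above 0 in each library. H2A had 9 of 18 with probucol and 10 untreated, H2B had 11 of 19 and 13, H3 had 7 of 12 and 8, and H4 had 10 of 13 and 11. The median member stood at 0.399 FPKM with probucol against 0.937 FPKM untreated, and the median of all symbols at 0.271 and 0.409 FPKM. A mean FPKM of 1 or more over both libraries was reached by 27 members (39.7%), against 43.8% of all symbols. Beyond detection, the summed level of all 68 was 198.8 FPKM with probucol against 253.5 FPKM untreated, which was 0.0266% and 0.0334% of all FPKM. In bulk RNA, fewer cells that express these genes and less RNA per cell cannot be told apart.

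A few genes held most of this sum. The 10 highest members made up 74.4% of it with probucol and 73.1% untreated, and the 54 genes of the Hist1 cluster together held 132.7 and 161.7 FPKM. The types stood in the same order in both libraries. H4 summed to 71.6 FPKM with probucol against 101.1 FPKM untreated, and H2B to 53.2 and 62.0 FPKM. H2A summed to 34.9 and 43.0 FPKM, H1 to 28.9 and 38.4 FPKM, and H3 was lowest, at 10.3 and 8.97 FPKM.

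Low FPKM values fell on steps worth 1 fragment, so fragment numbers behind each value could be estimated. One fragment was worth 0.0407 to 0.594 FPKM depending on the member's length (median 0.356), and 62 members had a usable RefSeq length. With probucol 22 of the 62 had no fragment, 14 had 1 or 2, 12 had 3 to 9 and 14 had 10 or more. In the untreated library the numbers were 18, 12, 19 and 13. Intervals given below for ratios are exact binomial 95% intervals on these fragments. They cover counting error only, PCR copies were not removed, and differences between animals, sorts and library preparations are outside them.

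Among linker histones, Hist1h1c (encoding H1.2) was at 17.6 FPKM with probucol against 24.7 FPKM untreated, from an estimated 91 and 128 fragments. It had the most fragments of the 62 members with a length in both libraries, and its ratio of 0.714 had an interval of 0.538 to 0.939. Hist1h1e (H1.4) was at 4.89 and 7.83 FPKM (28 and 45 fragments), a ratio of 0.625 with an interval of 0.374 to 1.02. Hist1h1d (H1.3) went the other way, at 4.94 FPKM with probucol against 4.39 FPKM untreated, from 28 and 25 fragments. Hist1h1a and Hist1h1b were each under 1.2 FPKM in both libraries. The testis gene Hist1h1t was listed at 0 in both.

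Of H2A genes, Hist3h2a was highest, at 18.7 FPKM with probucol against 26.6 FPKM untreated (56 and 80 fragments, ratio 0.703, interval 0.489 to 0.999). All of its 50-base coding words also occur in other transcripts, Trim17 and Hist1 H2A genes among them, so this level is uncertain. Hist2h2ac was at 6.17 and 6.91 FPKM (16 and 18 fragments), the same to within counting error. The remaining H2A genes compared were low: Hist1h2ae at 1.72 and 2.57 FPKM and Hist1h2ac at 1.44 and 1.43 FPKM. Hist1h2ai was at 2.93 FPKM with probucol against 0.416 FPKM untreated, which is 7 fragments against 1, and its ratio of 7.03 had an interval of 0.901 to 316.

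Of H2B genes, Hist2h2bb was at 16.5 FPKM with probucol against 22.8 FPKM untreated (47 and 65 fragments, ratio 0.726, interval 0.487 to 1.07). Hist1h2bc was the abundant exception in direction, at 17.9 FPKM with probucol against 12.1 FPKM untreated, a ratio of 1.48 for which no fragment number could be estimated. Of its coding words 97.6% are shared with other H2B genes. Hist3h2ba was equal in both, at 9.87 and 9.83 FPKM from 25 fragments each. Hist2h2be, which encodes the H2BE variant known from olfactory neurons, was at 1.37 and 1.62 FPKM, but from 34 and 40 fragments, since its RefSeq transcript is 2667 bases long. Hist1h2bj was at 2.72 and 1.81 FPKM and Hist1h2bn at 2.25 and 1.79 FPKM. Hist1h2be was at 0.698 FPKM with probucol against 3.77 FPKM untreated, Hist1h2bg at 0.392 and 2.34 FPKM, and Hist1h2bm was listed at 0 with probucol and at 2.54 FPKM untreated. An estimated 1 fragment against 6 lay behind Hist1h2bg and 0 against 7 behind Hist1h2bm, and Hist1h2be had no estimate.

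Only 1 H3 gene, Hist1h3e, reached a mean of 1 FPKM. It was at 6.51 FPKM with probucol against 4.19 FPKM untreated (46 and 30 fragments), a ratio of 1.55 with an interval of 0.949 to 2.52. The other 11 H3 genes were each under 1.5 FPKM in both libraries, and Hist1h3b, Hist2h3c1 and Hist2h3c2 were listed at 0 in both.

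The H4 genes all encode the same core protein and held the highest single level. Hist1h4d was at 31.9 FPKM with probucol against 32.4 FPKM untreated (62 and 63 fragments, ratio 0.985, interval 0.683 to 1.42), close to equal. Hist1h4c, the next H4 gene, was at 16.8 and 27.5 FPKM (28 and 46 fragments, ratio 0.611, interval 0.367 to 0.996). Hist2h4 was at 7.40 and 14.7 FPKM (13 and 26 fragments, ratio 0.502, interval 0.236 to 1.01), and Hist4h4 at 4.78 and 6.92 FPKM (11 and 16 fragments). Hist1h4h was the 1 H4 gene of the 9 compared that was higher with probucol, at 4.42 against 3.08 FPKM, from 10 and 7 fragments. Hist1h4i was at 3.09 and 4.61 FPKM and Hist1h4f at 1.33 and 1.99 FPKM. Hist1h4m was at 1.02 and 4.56 FPKM (2 and 9 fragments) and Hist1h4k at 0.499 and 2.48 FPKM (1 and 5 fragments). All coding words of Hist1h4m are shared with other H4 genes.

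**Figure D1:**
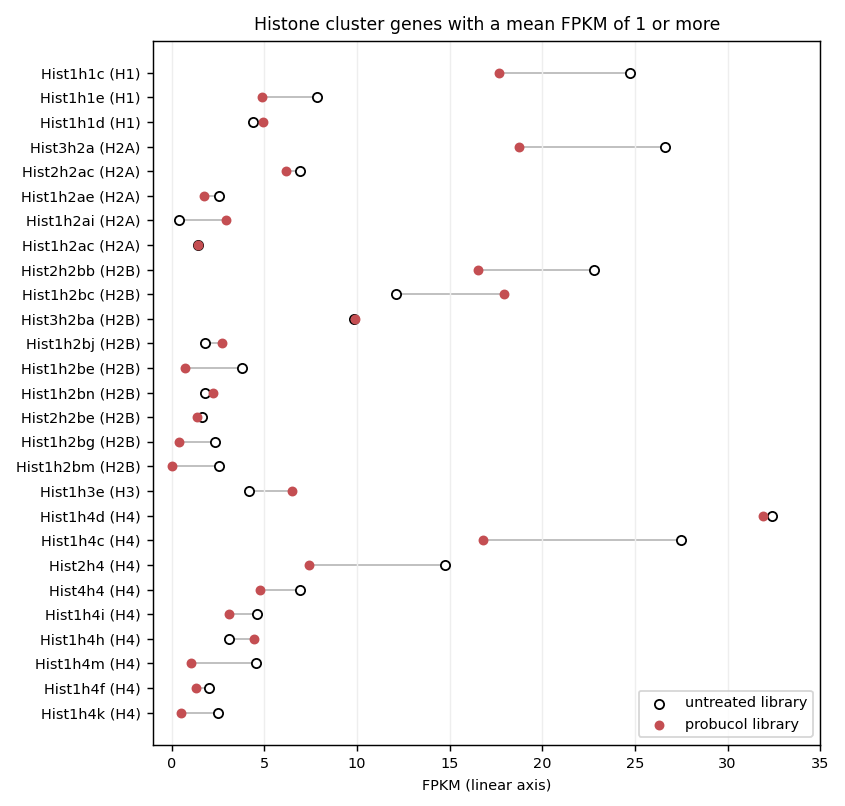
FPKM (linear axis) of the 27 histone cluster genes with a mean FPKM of 1 or more, 1 point per library and 1 row per gene, grouped by histone type and ordered by mean within it. Hist1h4d lies at about the same level in both libraries, the untreated point is to the right for 18 of the 27, and Hist1h2bc, Hist1h3e and Hist1h2ai show the opposite order.

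Log2 ratios (probucol over untreated) were computed on FPKM + 1 for genes with a mean FPKM of 1 or more. Of the 27 members compared, 9 were higher with probucol and 18 lower, with a median log2 ratio of -0.39. Over all 10663 genes compared the median was 0.02, and 47.3% were lower with probucol. A 2-fold difference or more on this scale was seen in 6 of the 27 members (22.2%). The share over all genes compared was 3.6%, with 1.62% higher and 1.98% lower. The single member higher was Hist1h2ai, and the 5 lower were Hist1h2bm, Hist1h2be, Hist1h4m, Hist1h2bg and Hist1h4k. None of those with an estimate had more than 9 fragments in either library. Among the 14 members with 10 fragments or more in either library, 4 were higher and 10 lower, and none was 2-fold different. Their fragments summed to 495 with probucol and 614 untreated. The counting interval of the ratio excluded 1 for 3 of the 24 compared members that had one, Hist1h1c, Hist1h4c and Hist3h2a, all lower with probucol, and these intervals were not adjusted for the number of members. The log2 ratio over all 68 members had a median of 0, with 21 higher, 31 lower and 16 equal at 0.

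Members near the filter show how few fragments separate the compared from the rest. Just under it lay Hist2h3b with a mean of 0.851 FPKM, Hist2h2ab with 0.869 FPKM and Hist1h2ag with 0.946 FPKM. Just over it lay Hist1h2bm with 1.27 FPKM, Hist1h2bg with 1.37 FPKM and Hist1h2ac with 1.43 FPKM. Several members were listed at 0 in one library and at 1 FPKM or more in the other. Besides Hist1h2bm, the untreated library alone had Hist1h2ag at 1.89 FPKM, Hist2h2ab at 1.74 FPKM, Hist1h4b at 1.65 FPKM, Hist1h3c at 1.47 FPKM and Hist1h2bp at 1.01 FPKM. The probucol library alone had Hist1h2an at 1.26 FPKM and Hist1h2af at 1.16 FPKM. Where a fragment number could be estimated, each of these values rests on 3 to 7 fragments. Over all symbols, too, more were above 0 only in the untreated library (3289) than only with probucol (702), at any level. How many of those reached 1 FPKM was not counted.

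**Figure D2:**
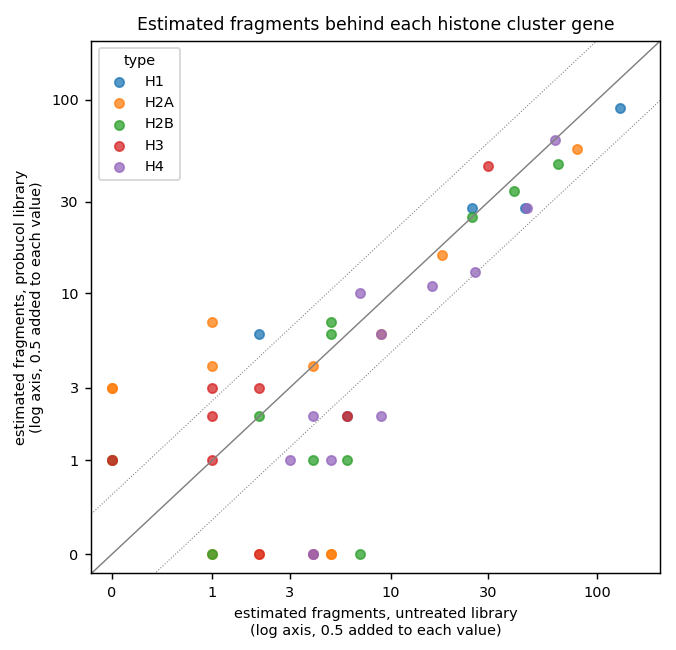
Estimated fragments in the untreated (x) and probucol (y) library for the 49 members with a RefSeq length and at least 1 fragment, on log axes with 0.5 added to each value so that 0 can be drawn. The solid line marks equal numbers and the dotted lines a 2-fold difference of the drawn values: members with 10 fragments or more lie between the dotted lines or on them, and the wide scatter is among members under 10.

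By type, the summed fragments were lower with probucol for H1, H2A, H2B and H4, and higher for H3. Over the 62 members with a length, 573 fragments with probucol stood against 731 untreated, a depth-scaled ratio of 0.785 with a counting interval of 0.703 to 0.877. H4 had 136 against 192 fragments (0.710, 0.565 to 0.888) and H1 had 155 against 206 (0.754, 0.608 to 0.933). H2B had 124 against 160 (0.776, 0.609 to 0.988). H2A had 100 against 126 (0.795, 0.605 to 1.04), and H3 had 58 against 47 (1.24, 0.827 to 1.86). The intervals of H1, H2B and H4 lay under 1, and those of H2A and H3 included it. The H2B interval covers 14 of 19 members and leaves out Hist1h2bc, which was higher with probucol and has no usable length. Over all 19 the ratio of summed H2B FPKM was 0.857, without an interval, and it was 0.933 without the highest member, Hist2h2bb. The H3 value rests on Hist1h3e: without the highest member of each type, the ratio of summed H3 FPKM was 0.784 in place of 1.14. The ratio of summed H2A FPKM was 0.810, 0.985 without its highest member Hist3h2a, and 1.10 without the 7 H2A members whose coding words are all shared, Hist3h2a and Hist1h2ag among them. Median log2 ratios of the compared members were -0.46 for H1 (3 genes), -0.14 for H2A (5), -0.14 for H2B (9), 0.53 for H3 (1) and -0.46 for H4 (9, of which 8 lower). Differences between types were not tested.

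**Figure D3:**
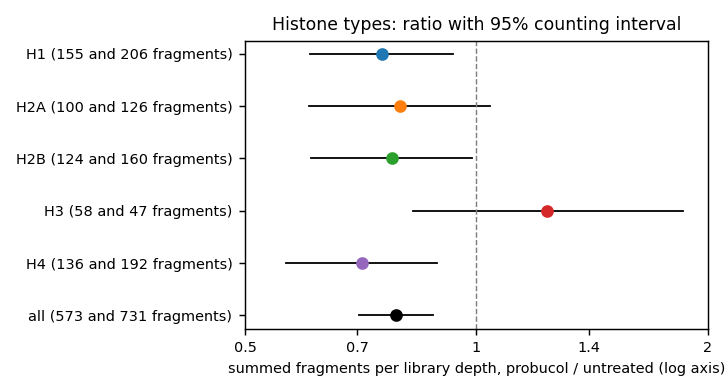
Ratio of summed fragments scaled to library depth, probucol over untreated (log axis), for each histone type and for all members with a length. Points are ratios, lines are 95% counting intervals, and the dashed line is a ratio of 1. H1, H2B, H4 and all members together lie below 1, and the intervals of H2A and H3 cross it. The H2B point covers 14 of 19 members, without Hist1h2bc, and the summed FPKM ratio of all 19 was 0.857.

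Levels were then set against where the annotated message ends. The GENCODE model stopped less than 100 bases past the stem-loop in 23 members and ran on for 100 bases or more in another 23, by 108 to 4884 bases (median 752). A further 15 models had under 20 bases after the stop codon, 6 had such sequence but no match, and 1 was the pseudogene. Members whose models ran on had the higher median level. Their median mean FPKM was 2.23, with 15 of 23 at a mean of 1 FPKM or more, against a median of 0.529 and 6 of 23 for those that stopped at the stem-loop. They held 66.5% of the summed histone FPKM with probucol and 69.9% untreated, and 7 of the 10 highest members were among them: Hist1h4d, Hist3h2a, Hist1h4c, Hist1h1c, Hist2h4, Hist3h2ba and Hist1h1e. The same order held within H2A (medians 2.14 and 0), H2B (1.80 and 0.608) and H4 (5.85 and 1.66), but not within H3, where the 5 that ran on had a median of 0.169 and the 4 that stopped 0.605. All 4 H1 models with a stem-loop ran on. Copies bear on this comparison, since all coding words were shared in 8 of the 23 that stopped, 5 of them listed at 0 in both libraries, and in 3 of the 23 that ran on. Without such members the medians were 3.04 FPKM for the 20 that ran on and 0.710 FPKM for the 15 that stopped. The H2A order then turned, at 1.79 and 3.27 FPKM with 2 members on each side. The H3 medians became 0.575 and 0.605 FPKM, and the orders of H2B and H4 stood. The other 3 of the 10 highest were Hist2h2ac, which stopped at the stem-loop, Hist2h2bb, whose model had no sequence after the stop codon, and Hist1h2bc, whose spliced model had 742 bases after it without a match.

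The signal AATAAA occurred in the run-on stretch of 14 of the 23, with median levels of 1.58 FPKM (probucol) and 3.17 FPKM (untreated), and was absent from the other 9, with 3.09 and 4.19 FPKM. Summed levels went the other way, at 67.9 and 97.5 FPKM for the 14 with AATAAA and 64.2 and 79.7 FPKM for the 9 without. AATAAA was counted anywhere in the stretch, so a match need not be a poly(A) signal in use. The RefSeq models of the same genes were short: in 42 of 45 that could be compared, the RefSeq end lay 4 to 8 bases past the stem-loop. The steps of the low member FPKM fitted the RefSeq lengths, with 49 of 57 values (86.0%) within 0.1 of a whole fragment number (20% of evenly spread values would be). If the deposited levels were counted on these short models, as the steps fit, fragments beyond the stem-loop lay outside the counted region of most members. Both groups of models had lower sums with probucol, from 177 to 132 FPKM in those that ran on and from 28.3 to 18.7 FPKM in those that stopped.

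**Figure D4:**
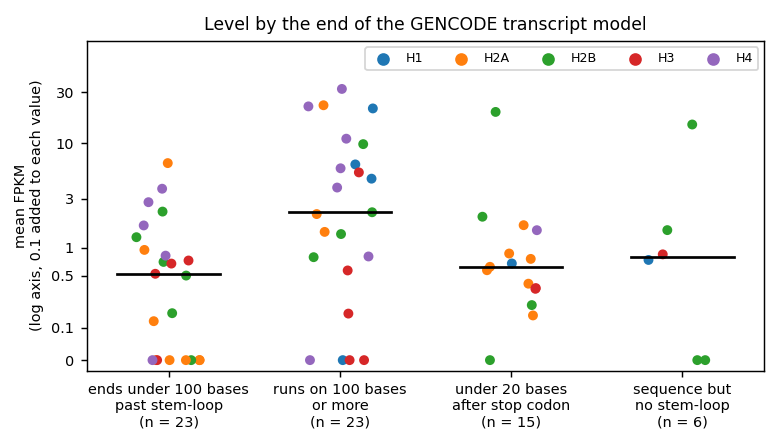
Mean FPKM of both libraries (log axis, 0.1 added to each value) for 67 members, 1 point each and coloured by histone type, grouped by the end of the GENCODE transcript model; bars are medians. Members whose models run on past the stem-loop have a median of 2.23 FPKM and hold the highest points, and those ending near the stem-loop have a median of 0.529 FPKM.

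Near-identical copies limit many members. Over the 67 members with a coding sequence, the median share of 50-base coding words that also occur in another gene was 75.4%. It was over 50% in 53 members and complete in 13. Of these 13, 9 were listed at 0 in both libraries, Hist2h2aa1, Hist1h2ao and Hist1h4n among them. How fragments that fit several copies were counted is not given in these sources, so a 0 in such a gene does not show that it was silent. Hist1h1a, Hist1h1b, Hist2h2be and Hist4h4 shared no such word, as did Hist1h1t. Only exact words of the coding sequence were compared, so sharing elsewhere in their messages was not examined.

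Many H2A and H2B genes sit head to head and share a promoter region. There were 13 such pairs, 12 of them an H2A with an H2B gene whose starts lie 164 to 281 bases apart. Both partners were above 0 in both libraries in 4 of these 12. Of these 4 the most unequal was the pair of Hist1h2ac and Hist1h2bc. Hist1h2ac was at 1.44 FPKM with probucol against 1.43 FPKM untreated. Its partner Hist1h2bc was at 17.9 and 12.1 FPKM, a ratio of mean levels of 10.5. Hist1h2bc shares most of its coding words with other H2B genes, so this ratio is uncertain. It was 1.57 for Hist1h2ae and Hist1h2bg and 2.65 for Hist1h2ak and Hist1h2bn, from under 10 fragments per gene and library. In the pair of Hist2h2ac and Hist2h2be the H2A gene was the higher, at 6.17 and 6.91 FPKM against 1.37 and 1.62 FPKM. For Hist3h2a the partner is the pseudogene Hist3h2bb-ps, listed at 0.

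Testis-specialised members were near absent. Hist1h1t was listed at 0 in both libraries, and Hist1h2aa and Hist1h2ba at 0 with probucol and at 0.819 and 0.446 FPKM untreated, from 2 and 1 fragments. Of 6 germ cell genes, Tnp1, Prm1 and Sycp3 were listed at 0 in both libraries, and the 6 summed to 0.248 FPKM with probucol against 0.377 FPKM untreated.

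A list of 19 genes held factors that transcribe and process histone messages and chaperones that carry histones to DNA. Of 18 compared, 8 were higher with probucol and 10 lower, none by 2-fold, with a median log2 ratio of -0.02. Slbp was at 89.7 FPKM with probucol against 80.9 FPKM untreated. Npat, the activator of histone loci, was at 3.90 and 3.62 FPKM, and Casp8ap2, encoding its partner FLASH, at 8.76 and 6.72 FPKM. The U7 ring proteins gave 63.6 and 72.0 FPKM for Lsm10 and 3.71 and 4.16 FPKM for Lsm11. Zfp473, a zinc finger protein of the U7 complex, was listed at 0 in both. The largest ratios were in Sympk, a scaffold of the cleavage complex, at 12.0 and 8.85 FPKM, and Chaf1b, a subunit of chromatin assembly factor 1, at 11.0 and 15.5 FPKM. Of 7 genes of histone message decay, 5 were higher and 2 lower, with a median of 0.18, led by the kinase gene Smg1 at 5.80 and 3.29 FPKM.

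Variant histones outside the clusters, most of whose messages are polyadenylated, had a higher summed level than the cluster genes. The 11 genes summed to 1851 FPKM with probucol against 2100 FPKM untreated, against 198.8 and 253.5 FPKM for all 68 members. H2afz was at 558 and 694 FPKM, H3f3b at 501 and 532 FPKM, and H3f3a at 388 and 422 FPKM. H2afy2 and H1fx were under 0.12 FPKM in both libraries. Of the 9 compared, 8 were lower with probucol and H2afj was higher, at 83.1 and 76.9 FPKM. Their median log2 ratio was -0.14, with none at 2-fold. Cenpa, the centromeric H3 variant, was at 23.0 and 35.5 FPKM, and the linker variant H1f0 at 19.6 and 28.6 FPKM.

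Genes of S phase and mitosis were also mostly lower with probucol. Of 19 S phase genes compared, 5 were higher and 14 lower, with a median log2 ratio of -0.30. Gins2, a subunit of the replicative helicase, was the 1 gene at 2-fold or more, at 3.50 and 10.5 FPKM, while the sliding clamp gene Pcna was at 129 and 113 FPKM. Of 11 mitosis genes compared, 1 was higher and 10 lower, with a median of -0.52, and Ccnb2 was at 6.09 and 15.1 FPKM. Markers of other cells moved too. Erythroid genes were lower with probucol in 8 of 8, and the 9 found summed to 296 FPKM against 980 FPKM untreated. B cell genes were higher in 6 of 6, and the 8 found summed to 60.6 FPKM against 22.0 FPKM, with Pax5 listed at 0 in both. Macrophage genes summed to 180 and 173 FPKM and neutrophil genes to 920 and 814 FPKM. Of 5 neutrophil genes compared, 4 were higher with probucol and 1 lower. Among the higher were Mpo at 10.9 and 4.23 FPKM and Elane at 12.0 and 2.80 FPKM. The part of cycling cells, erythroid cells or B cells in the histone levels was not tested.

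**Figure D5:**
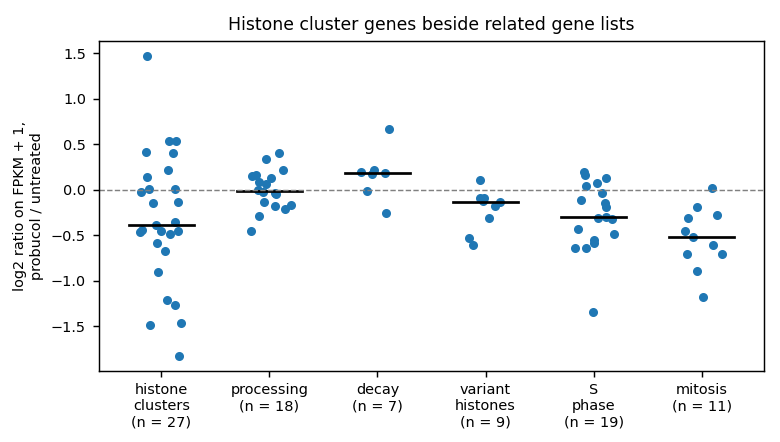
Log2 ratio on FPKM + 1, probucol over untreated, for histone cluster genes and 5 related lists, 1 point per gene with a mean FPKM of 1 or more; bars are medians and the dashed line is 0. The medians are -0.39 for histone clusters, -0.02 for processing, 0.18 for decay, -0.14 for variant histones, -0.30 for S phase and -0.52 for mitosis.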

How the data were processed

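RNA was measured in 2 libraries, 1 per group. The authors deposited FPKM, 1 value per gene symbol, per the file headers. Per the submitters' processing notes, the tools were TopHat2 2.1.1, Bowtie2 and Cuffdiff 2.2.1 and the build mm10; the notes give no roles. Annotation, strand and the handling of fragments that fit several genes are not stated there. Per the labels' protocols, RNA came from the miRNeasy Micro Kit and libraries from SMART-Seq HT and Nextera kits. No molecular identifiers are named. Depth was estimated from the values.

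FPKM was read as fragments divided by RefSeq length less a constant and by depth. Both were fitted on low values of single-exon genes outside the histone clusters. The fit gave depths of 9.979 (probucol) and 9.996 (untreated), in units of 1000000 fragments, and 206.7 bases subtracted. Of the 58 and 148 values fitted, 91.4% and 94.6% lay within 0.1 of whole numbers. Of values not used in a repeat fit, 86.2% and 93.2% did. Fragments shared between copies need not be whole.

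Ratios used a pseudocount of 1, a mean FPKM of 1 or more, and a log2 threshold of 1. The fold comparison was also run on simulated counts, for genes of 1 fixed length that most members fall short of. Its outcome is not given here, and it does not cover members with few fragments. Named genes were members at a mean of 1 FPKM, the highest of each type, those at 0 in one library and 1 FPKM in the other, the testis set, and list members with the largest ratios. For length, some list members are not printed, and other members named, such as those with rare stem-loops or without shared words, were chosen after their values were seen. The members and lists were chosen with earlier results of these data known. The planned stem-loop search in a genome was made in GENCODE M21 transcripts, and RefSeq symbols were matched through synonyms, with 67 of 68 members matching 1 entry. Python 3.11.15, numpy 2.4.6, pandas 2.3.3, scipy 1.17.1 and matplotlib 3.10.9 were used.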

Additional observations from a re-analysis of the deposited data

How the results depend on the processing

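With 1 library per group, no replicate could be left out. No paired analysis was possible because each group has 1 library and the labels carry no replicate numbers. Among the members compared, no ratio past 2-fold changed sign under the settings run, but the summed H2A and H3 ratios crossed 1 in the settings that left out some of their members. Requiring 3 estimated fragments, which leaves out the 6 members without a length, gave 26 members detected with probucol in place of 42 and 32 untreated in place of 47. The median log2 ratio of -0.39 was -0.17 with a pseudocount of 5 and 0 with no filter on low values. The counts of 1 member higher and 5 lower by 2-fold became 3 and 10 with no filter. They became 0 and 0 with a pseudocount of 5, with a mean FPKM of 5 or more, and among members with 10 fragments or more. The members counted numbered 68 with no filter, 27 with the larger pseudocount, 12 under the stricter FPKM limit and 14 by fragments. Over all genes, the 2-fold share of 3.6% became 2.06% unfiltered, 1.12% with the larger pseudocount and 2.23% under the stricter limit. No such share is given for the choice by fragments. The sum ratio of H2A became 1.10 in place of 0.810 without members whose coding words are all shared, and that of H3 became 0.784 in place of 1.14 without the highest member of each type. These moves follow from the members kept or from the larger pseudocount. Of the other values of the main comparisons under other settings, 91 were within their tolerance, which was wide. It took in 29 members detected with probucol and 34 untreated at an FPKM of 1 or more. For median log2 ratios it was 0.39 in H2A and 0.35 in H2B. The H2A value of -0.14 became 0.09 as a mean over members. The H2B value of -0.14 became 0.006 at a mean FPKM of 5 or more. Those of H1, H3 and H4 kept their sign. The alternatives by 10 fragments and by shared words were added after seeing the data. Depth limits the low members: 23 had under 3 fragments in both libraries.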
